A study of Homo sapiens with 12 samples.

Results

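The SOX genes encode transcription factors, and 10 of them were followed here across 4 groups of G401 cells: SOX2, SOX4, SOX5, SOX6, SOX8, SOX9, SOX11, SOX12, SOX13 and SOX17. Members were the rows of the deposited gene tables whose identifier, without its version, belongs to these genes. All 10 were found among 57820 gene identifiers. SOX4, SOX6, SOX8, SOX12 and SOX13 had enough counts to be tested, and the other 5 were silent or nearly so. G401 is an established human line from a malignant rhabdoid tumour, labelled SMARCB1(-/-), so that all groups lack the endogenous gene. Doxycycline induced either GFP or SMARCB1, and each of these states received DMSO or dBRD9-A, a degrader of BRD9, for 24 h. The 4 groups are therefore GFP with DMSO, GFP with dBRD9-A, SMARCB1 with DMSO and SMARCB1 with dBRD9-A, with 3 libraries in each. The design asks what restored SMARCB1 changes, what loss of BRD9 changes, and whether the second depends on the first. The result is limited to 1 cell line, the labels used here do not state how long doxycycline was given, and they do not say that replicates came from separate cultures. If they did not, the p-values measure only the spread between these samples.

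SOX proteins bind short AT-rich DNA in the minor groove through an HMG box and bend it, and most act together with partner factors. SOX2 (subfamily SOXB1) maintains pluripotent and neural stem cells. SOX4, SOX11 and SOX12 (SOXC) are activators in progenitors, SOX5, SOX6 and SOX13 (SOXD) lack an activation domain of their own and work as dimers, SOX8 and SOX9 (SOXE) act in neural crest, gonad, glia and cartilage, and SOX17 (SOXF) acts in endoderm and endothelium. SMARCB1 is a core subunit of the canonical BAF and PBAF forms of the SWI/SNF chromatin remodeller, and BRD9 belongs to the noncanonical form, which does not contain SMARCB1.

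The libraries held 34974295 to 58536060 gene counts. SMARCB1 had 0 to 2 counts in each of the 6 libraries from GFP cells, 69021 to 110893 in those from SMARCB1 cells with DMSO and 53033 to 71966 in those from SMARCB1 cells with dBRD9-A, as the labels require. BRD9 is degraded as a protein, so its mRNA, at 1483 to 2635 counts, does not check the treatment. VIM, KRT8 and KRT18 were abundant in every library, with a summed count of 219969 to 371251. PTPRC, CD3E, MYOD1 and MYF5 were at 0 throughout. One library stood apart by genes seen almost only in it. SMARCB1 with DMSO replicate 1 held 73 genes with at least 5 counts there and at most 1 count in each of the other 11 libraries. Each of those held 0 to 8 such genes. The 73 genes summed to 932 counts, 0.00243% of SMARCB1 with DMSO replicate 1. For the 5 tested members and for the gene lists, the effect of SMARCB1 in DMSO is given with and without this library. By spread between replicates, SMARCB1 with dBRD9-A replicate 2 stood apart. Its pairs had a chi-square per degree of freedom, against sampling noise, of 10.1 and 23.8, and the other pairs 2.89 to 7.45. Without it, dBRD9-A in SMARCB1 cells called 422 of 16009 genes, against 304 of 15750 with all libraries.

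Short stretches upstream of 4 tested members are shown because SOX4 and SOX13 were the members with the largest change, SOX6 a member that changed with both manipulations, and SOX12 the SOXC relative of SOX4 that stayed abundant. Each run holds the 250 bases before the RefSeq start on the gene's strand (GRCh38.p14), with motif matches in capitals, and for SOX6 the first of 5 listed starts is used:
SOX4, chr6:21593501-21593750, plus strand: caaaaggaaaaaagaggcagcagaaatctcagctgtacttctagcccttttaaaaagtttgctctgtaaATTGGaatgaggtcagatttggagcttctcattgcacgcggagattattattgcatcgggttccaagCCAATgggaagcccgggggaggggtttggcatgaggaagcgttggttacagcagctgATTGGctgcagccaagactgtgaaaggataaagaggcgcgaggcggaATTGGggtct
SOX13, chr1:204072865-204073114, plus strand: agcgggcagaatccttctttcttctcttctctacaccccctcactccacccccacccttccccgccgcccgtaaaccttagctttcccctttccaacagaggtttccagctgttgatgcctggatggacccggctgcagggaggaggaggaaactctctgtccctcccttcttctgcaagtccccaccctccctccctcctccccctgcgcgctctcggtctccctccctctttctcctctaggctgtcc
SOX6, chr11:16738478-16738727, minus strand: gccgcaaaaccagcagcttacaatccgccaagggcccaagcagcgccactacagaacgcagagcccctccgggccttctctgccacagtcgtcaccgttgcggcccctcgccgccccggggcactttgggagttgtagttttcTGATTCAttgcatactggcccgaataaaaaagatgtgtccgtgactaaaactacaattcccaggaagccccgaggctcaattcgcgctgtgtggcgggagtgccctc
SOX12, chr20:325302-325551, plus strand: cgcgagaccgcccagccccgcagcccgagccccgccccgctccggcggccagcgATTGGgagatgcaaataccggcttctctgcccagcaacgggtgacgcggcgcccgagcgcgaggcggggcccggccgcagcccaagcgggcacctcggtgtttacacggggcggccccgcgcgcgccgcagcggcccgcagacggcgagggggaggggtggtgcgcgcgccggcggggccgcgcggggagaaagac

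The motifs searched, on both strands, were CCAAT (the NF-Y box), ACAAAG and ACAATG (forms of the SOX site), TGANTCA (looser than the AP-1 site, with any middle base) and TATAAA. The SOX4 run had 4 CCAAT matches, 181, 114, 57 and 10 bases before the start, of which 3 read ATTGG on the strand shown. SOX12 had 1 such match, 196 bases before the start, and SOX6 had 1 TGANTCA match at 107 bases, which reads TGATTCA. None of the 5 motifs was found in the SOX13 run. Among 35116 RefSeq runs of this length, 32.01% hold CCAAT, 13.72% ACAAAG, 9.286% ACAATG, 6.573% TGANTCA and 10.72% TATAAA. CG dinucleotides numbered 8 in SOX4, 8 in SOX13, 17 in SOX6 and 42 in SOX12, against a median of 11 over all runs. A match describes letters only, and no binding was measured here.

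Of the 10 members, 8 exceeded a floor of 3 counts in at least 1 library and 5 passed the filter on low counts. The plot of levels by library shows those 5. SOX12, SOX6 and SOX8 were expressed in all 4 groups, whereas SOX4 and SOX13 were low in GFP cells and higher in SMARCB1 cells. Levels are CPM, the counts of a gene relative to its library's total, with that total adjusted by edgeR's TMM factors (trimmed mean of M values). Bulk RNA cannot tell fewer expressing cells from less RNA per cell.

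**Figure D1:**
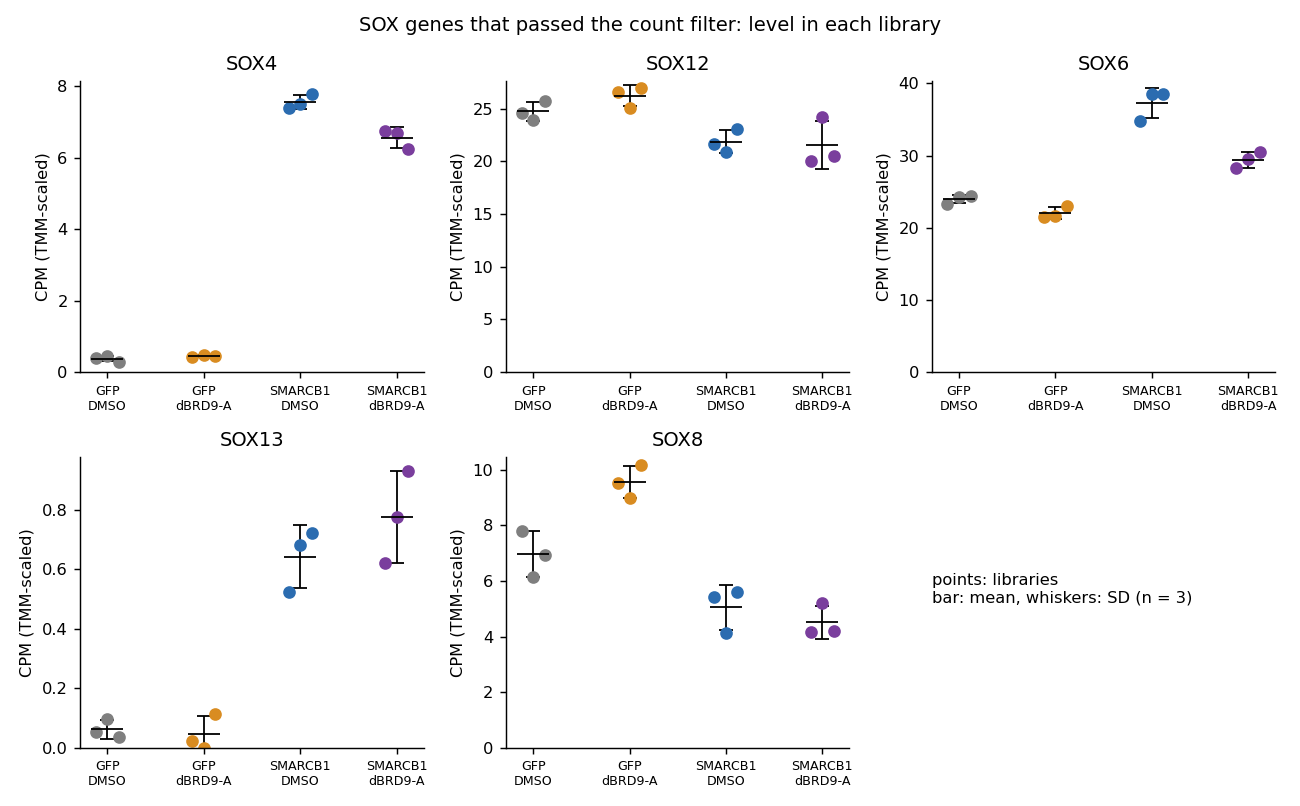
Level of SOX4, SOX12, SOX6, SOX13 and SOX8 in each of the 12 libraries, in CPM on axes that start at 0; points are libraries, bars are means and whiskers SD (n = 3). SOX4 lies between 0.294 and 0.474 CPM in GFP cells and between 6.23 and 7.77 CPM in SMARCB1 cells, and SOX8 is highest in GFP cells with dBRD9-A.

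SOX4, the SOXC factor of neural, lymphoid and pancreatic progenitors, showed the largest change of any member when SMARCB1 was induced in DMSO. In GFP cells with DMSO the 3 libraries held 22, 18 and 17 counts, and with dBRD9-A 18, 18 and 16. In SMARCB1 cells they held 282, 298 and 452 counts with DMSO and 272, 363 and 268 with dBRD9-A. Every SMARCB1 library lay above every GFP library. The mean level was 0.373 CPM ± 0.0727 (SD, n = 3) in GFP cells and 7.55 CPM ± 0.201 (SD, n = 3) in SMARCB1 cells, both with DMSO. This difference was 20.4-fold, or 4.35 on the log2 scale (SE 0.12, adjusted p = 2.42e-15, edgeR's quasi-likelihood test). It was 4.37 without SMARCB1 with DMSO replicate 1. In dBRD9-A the same comparison gave 3.87 (SE 0.13, adjusted p = 2.79e-14), with 0.449 CPM ± 0.0267 (SD, n = 3) against 6.56 CPM ± 0.286 (SD, n = 3).

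Within GFP cells, dBRD9-A left SOX4 ranges that overlapped (log2 fold change 0.28, 95% interval -0.16 to 0.73, adjusted p = 0.538). Within SMARCB1 cells the dBRD9-A libraries, at 6.23 to 6.76 CPM, all lay below the DMSO libraries, at 7.38 to 7.77 CPM. The log2 fold change of -0.20 (95% interval -0.38 to -0.03) nevertheless missed the threshold over all genes (adjusted p = 0.282).

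SOX12, the least studied SOXC gene, was the most abundant SOXC member in all 4 groups and moved far less. Its levels were 24.5, 23.9 and 25.7 CPM in GFP cells with DMSO and 21.6, 20.9 and 23.0 CPM in SMARCB1 cells with DMSO. The groups did not overlap, but the difference was small, at -0.18 on the log2 scale (SE 0.06, adjusted p = 0.0202). This call was lost without SMARCB1 with DMSO replicate 1 (-0.17, adjusted p = 0.0519), without SMARCB1 with DMSO replicate 2 (-0.15, adjusted p = 0.0857) and without GFP with DMSO replicate 3 (-0.15, adjusted p = 0.0858).

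In dBRD9-A the SOX12 levels were 26.6, 25.1 and 27.0 CPM in GFP cells and 20.0, 24.2 and 20.5 CPM in SMARCB1 cells. The fall in SMARCB1 cells passed the test here (-0.28, SE 0.06, adjusted p = 0.00112), and it was held in all 12 fits that each left out 1 library. The dBRD9-A effect on SOX12 was 0.08 in GFP cells (95% interval -0.05 to 0.21, adjusted p = 0.440) and -0.02 in SMARCB1 cells (95% interval -0.15 to 0.12, adjusted p = 0.950). The latter changed sign without SMARCB1 with DMSO replicate 3 or without SMARCB1 with dBRD9-A replicate 1 or 3.

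The SOXC counts thus changed in makeup. SOX4 gave 1.49% ± 0.337 (SD, n = 3) of the counts of SOX4, SOX11 and SOX12 in GFP cells with DMSO and 25.7% ± 0.655 (SD, n = 3) in SMARCB1 cells with DMSO. With dBRD9-A the shares were 1.69% ± 0.153 (SD, n = 3) and 23.4% ± 1.79 (SD, n = 3). The summed SOXC level was 25.1 CPM ± 0.856 (SD, n = 3) in GFP cells and 29.4 CPM ± 1.22 (SD, n = 3) in SMARCB1 cells, both with DMSO. SOX11, the neuronal SOXC factor, was at 0 in 11 libraries and at 5 counts in SMARCB1 with DMSO replicate 1.

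SOX6, the SOXD factor of cartilage, red cell and oligodendrocyte development, was higher where SMARCB1 was induced and lower again when BRD9 was degraded in those cells. With DMSO its levels were 23.3, 24.2 and 24.3 CPM in GFP cells and 34.8, 38.5 and 38.5 CPM in SMARCB1 cells. The groups did not overlap, and the difference was 1.56-fold, or 0.64 on the log2 scale (SE 0.05, adjusted p = 1.52e-09). It was 0.68 without SMARCB1 with DMSO replicate 1, the lowest of its group. With dBRD9-A the levels were 21.5, 21.6 and 23.0 CPM in GFP cells and 28.3, 29.5 and 30.4 CPM in SMARCB1 cells, again without overlap (0.42, SE 0.05, adjusted p = 9.41e-07). That call was lost when libraries were scaled to spike-in RNA, with 0.09 (adjusted p = 0.322).

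The fall of SOX6 with dBRD9-A in SMARCB1 cells measured -0.34 on the log2 scale (SE 0.05, adjusted p = 4.16e-04) and was called in all 12 fits without 1 library. In GFP cells all 3 dBRD9-A libraries lay below all 3 DMSO libraries in TMM-scaled CPM. The test did not pass (-0.12, 95% interval -0.22 to -0.01, adjusted p = 0.123). With spike-in scaling SOX6 was instead called higher in GFP cells, so no direction is given for GFP cells. Induced SMARCB1 mRNA itself was lower with dBRD9-A, at 1307 CPM ± 27.0 (SD, n = 3) against 1875 CPM ± 59.4 (SD, n = 3), which is -0.52 on the log2 scale (SE 0.03, adjusted p = 4.95e-08). Its part in the SOX6 difference was not tested.

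SOX13, a SOXD gene known as a T-cell factor and islet cell autoantigen, was at the limit of detection in GFP cells and low in SMARCB1 cells. GFP cells gave 3, 4 and 2 counts with DMSO and 1, 0 and 4 with dBRD9-A. SMARCB1 cells gave 20, 27 and 42 counts with DMSO and 25, 42 and 40 with dBRD9-A. All 6 SMARCB1 libraries exceeded all 6 GFP libraries. Summed over replicates and scaled by library size, the ratio was 11.3 (95% counting interval 5.69 to 25.5) with DMSO and 18.1 (95% counting interval 7.51 to 56.8) with dBRD9-A. These intervals, like the floor, cover counting error only.

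SOX13 passed the filter on low counts only through the SMARCB1 groups, where it is high, so its tests between states are descriptions. The fitted SOX13 log2 fold changes were 3.42 (SE 0.45, adjusted p = 3.32e-06) and 4.09 (SE 0.51, adjusted p = 1.56e-06). The first was 3.53 without SMARCB1 with DMSO replicate 1. The second ranged from 3.54 to 5.69 when 1 library was left out, the highest without GFP with dBRD9-A replicate 3, which leaves that group with 1 and 0 counts. An effect of dBRD9-A on SOX13 was not detectable at this depth, with intervals of -2.12 to 1.31 in GFP cells and -0.37 to 0.89 in SMARCB1 cells on the log2 scale. The GFP estimate, -0.41, changed sign without GFP with dBRD9-A replicate 2, the library with 0 counts. SOX5, the close relative of SOX6 in cartilage, had 10 counts in SMARCB1 with DMSO replicate 1, 1 count in GFP with dBRD9-A replicate 3 and 0 in the other 10 libraries.

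SOX8, a SOXE factor of testis, glia and neural crest, ran the other way: it was lower with SMARCB1, and in GFP cells it was higher with dBRD9-A. With DMSO its levels were 7.81, 6.16 and 6.95 CPM in GFP cells and 5.42, 4.13 and 5.62 CPM in SMARCB1 cells. With dBRD9-A they were 9.54, 9.004 and 10.2 CPM in GFP cells and 4.15, 5.20 and 4.19 CPM in SMARCB1 cells. GFP cells with dBRD9-A were thus the highest of the 4 groups in every library, while the SMARCB1 groups overlapped. For SOX8 the log2 difference between SMARCB1 and GFP cells came to -0.46 (SE 0.12, adjusted p = 0.00228) in DMSO and -1.07 (SE 0.12, adjusted p = 3.70e-07) in dBRD9-A. The latter is a 2.10-fold lower level. The former was -0.50 (adjusted p = 0.00356) without SMARCB1 with DMSO replicate 1.

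The rise of SOX8 with dBRD9-A in GFP cells measured 0.45 on the log2 scale (SE 0.11, adjusted p = 0.00981). It was held in all 12 fits without 1 library, with adjusted p of 0.00410 to 0.0497. In SMARCB1 cells the estimate was -0.16 (95% interval -0.43 to 0.10, adjusted p = 0.655). SOX9, the SOXE factor that directs cartilage and testis formation, had 1 count in SMARCB1 with DMSO replicate 1 and 0 in the other 11 libraries.

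SOX17 had 0 counts in all 12 libraries, which allows a level of up to 0.0516 to 0.0847 CPM depending on the library. SOX2 had 15 counts in SMARCB1 with DMSO replicate 1, 1 count in GFP with DMSO replicate 3 and 0 in the other 10. Outside SMARCB1 with DMSO replicate 1, SOX2, SOX5, SOX9, SOX11 and SOX17 therefore never exceeded 1 count. SOX2 (15), SOX5 (10) and SOX11 (5) were over the floor in that library alone, and all 3 are among its 73 genes. No induction of these genes by SMARCB1 can be read from 1 library of 3.

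The same library held transcripts of astrocytes. GFAP, the astrocyte intermediate filament, had 234 counts there and at most 1 elsewhere. AQP4, the astrocyte water channel, had 78 and at most 1, and SLC1A3, a glial glutamate transporter, had 43 and at most 3. Of 12 astroglial markers chosen after the values were seen, GJA1 was abundant in every library, at 14171 to 49515 counts. The other 11 summed to 392 counts in this library, with 8 over the floor, and to 0 to 9 counts in each of the others. SLC1A2, FABP7 and OLIG2 were at 0 in it. The part of these transcripts in the SOX2, SOX5 and SOX11 counts was not tested.

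**Figure D2:**
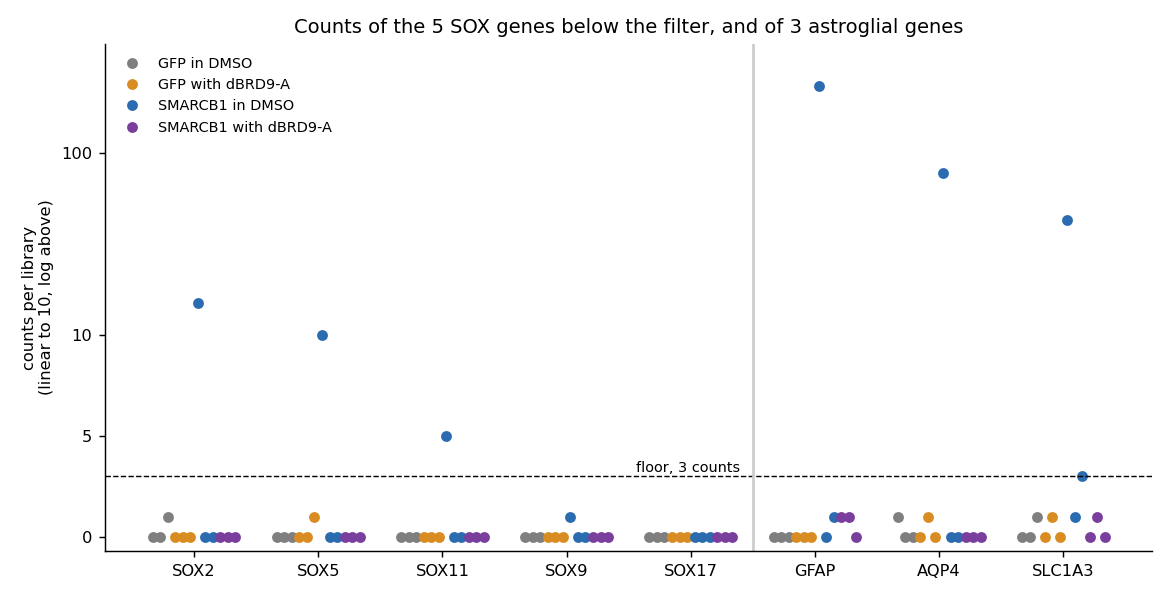
Counts of SOX2, SOX5, SOX11, SOX9 and SOX17, and of GFAP, AQP4 and SLC1A3, in each of 12 libraries; the axis is linear to 10 and logarithmic above, and the dashed line marks the floor of 3 counts. The points above the floor all come from SMARCB1 with DMSO replicate 1: 15 counts of SOX2, 10 of SOX5 and 5 of SOX11 beside 234 of GFAP.

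Per kilobase of merged exon (GENCODE release 29), the order of levels in GFP cells with DMSO was SOX12 at 5.34 CPM per kb, SOX8 at 1.57, SOX6 at 1.22, SOX4 at 0.0638 and SOX13 at 0.00830. No neighbours in this order overlapped across libraries. In SMARCB1 cells with DMSO the order was SOX12 at 4.72 CPM per kb, SOX6 at 1.90, SOX4 at 1.29, SOX8 at 1.14 and SOX13 at 0.0865. There SOX4, at 1.26 to 1.33, and SOX8, at 0.932 to 1.27, overlapped, so that their order is not settled. The SOX6 length of 19.64 kb merges all isoforms, which lowers its value against a gene with a single short transcript. SOX4 thus moved from a level far under SOX8 to one that overlapped it.

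Taking the comparisons in turn, SMARCB1 in DMSO changed all 5 tested members at an adjusted p under 0.05: SOX4, SOX6 and SOX13 rose and SOX8 and SOX12 fell. Without SMARCB1 with DMSO replicate 1 the call of SOX12 was lost, leaving 4. The same test called 65.0% of all 15750 genes, 33.5% higher and 31.6% lower, so that being called is common here. The median absolute log2 fold change was 0.64 over the 5 members and 0.28 over all genes tested. SOX13 passed the count filter only through the SMARCB1 groups, where it is high, so these counts and medians are descriptions. SMARCB1 in dBRD9-A likewise changed all 5 members in the same directions, with 63.3% of all genes called, 33.0% higher and 30.4% lower. The 2 comparisons use different libraries.

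dBRD9-A in GFP cells changed 1 of 5 tested members, SOX8, where 15.9% of all genes were called, 7.43% higher and 8.47% lower. dBRD9-A in SMARCB1 cells changed 1 of 5, SOX6, where 1.93% of all genes were called, 0.679% higher and 1.25% lower. The comparison of SMARCB1 with GFP in DMSO shares its GFP libraries with the first of these and its SMARCB1 libraries with the second. SOX6 had 0.64 with SMARCB1 and -0.34 with dBRD9-A added, and SOX8 had -0.46 with SMARCB1 and 0.45 with dBRD9-A in GFP cells, all on the log2 scale.

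The interaction term asked whether the dBRD9-A effect differed between SMARCB1 and GFP cells. edgeR called it for 0 of 5 members, against 3.80% of all genes (2.15% higher and 1.65% lower), while 2 members had an unadjusted p under 0.05. DESeq2 called 1 member, and edgeR called 4 with spike-in scaling, 1 with no filter on low counts, 1 with a minimum count of 50 and 1 with the replicate number as a block. Over all genes, DESeq2 called 594 of 15750, and edgeR called 11270 of 15750 with spike-in scaling. The other shares were 856 of 28732 with no filter, 645 of 12868 with the minimum of 50 and 529 of 15750 with the block. By edgeR with TMM, SOX8 came closest, with a difference of -0.61 (SE 0.17, 95% interval -0.97 to -0.26, adjusted p = 0.0510). DESeq2 gave -0.62 (adjusted p = 0.0163). Leaving out 1 library moved the adjusted p of SOX8 between 0.0130 and 0.156. The SOX8 difference was called without GFP with DMSO replicate 1, SMARCB1 with DMSO replicate 2 or SMARCB1 with dBRD9-A replicate 2. Without SMARCB1 with dBRD9-A replicate 2, the interaction was called for 862 of 16009 genes, against 598 of 15750 with all libraries. For SOX6 the difference was -0.22 (SE 0.07, 95% interval -0.37 to -0.08, adjusted p = 0.0867), called without SMARCB1 with DMSO replicate 1 (-0.27, adjusted p = 0.0284) and with the replicate block (-0.22, adjusted p = 0.0476). The dBRD9-A responses of SOX8 and SOX6 are therefore not shown to differ between the 2 states by the main test.

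The remaining interaction estimates were -0.49 for SOX4 (95% interval -0.97 to -0.01, adjusted p = 0.391), -0.10 for SOX12 (95% interval -0.29 to 0.09, adjusted p = 0.653) and 0.67 for SOX13 (95% interval -1.18 to 2.51, adjusted p = 0.780). The SOX4 interval excludes 0 although its unadjusted p is 0.0828. edgeR does not let the p of a low-count gene fall under that of a Poisson test, and the p without this bound, on which the interval rests, is 0.0463. The wide SOX13 interval allows differences of either sign.

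**Figure D3:**
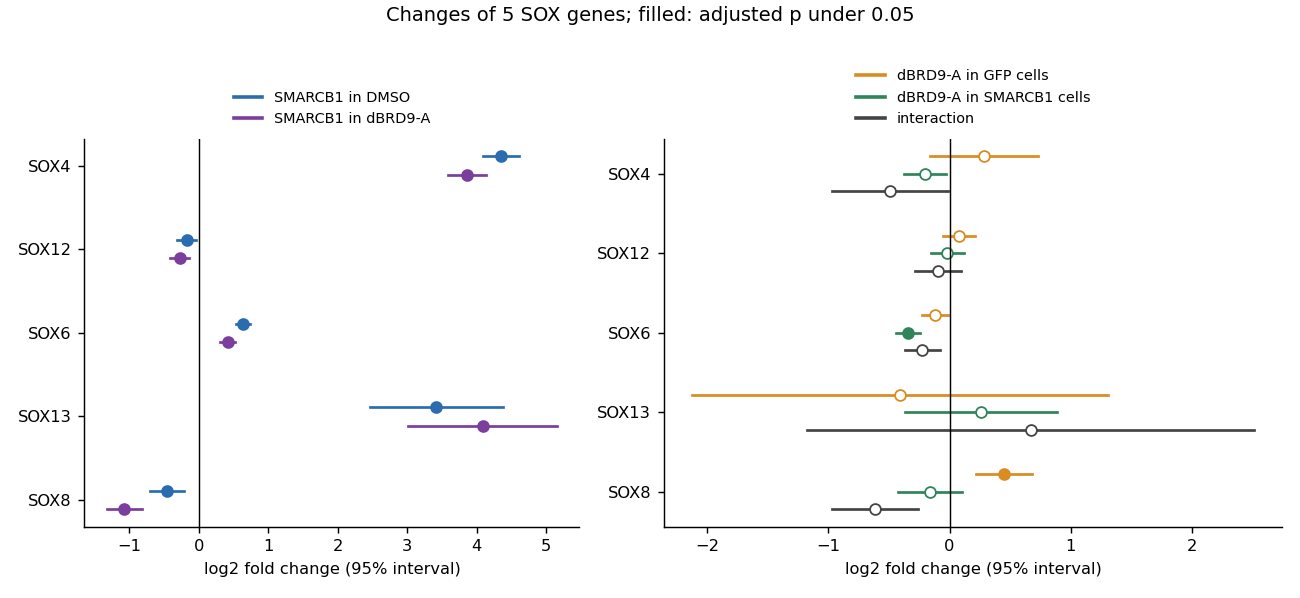
Log2 fold changes with 95% intervals for the 5 tested members; left, SMARCB1 against GFP in DMSO and in dBRD9-A, and right, dBRD9-A against DMSO in each state and the interaction. Filled points have an adjusted p under 0.05: all 10 on the left, and on the right only SOX8 in GFP cells (0.45) and SOX6 in SMARCB1 cells (-0.34).

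Scaling to the ERCC spike-in rows in place of TMM changed several statements about dBRD9-A. The spike-in share of counts was 1.265 to 1.302% in GFP cells with DMSO and 0.963 to 1.06% in GFP cells with dBRD9-A, and the labels used here do not say how spike-ins were added. Under this scaling the median of all genes moved by 0.36 for dBRD9-A in GFP cells, -0.14 for dBRD9-A in SMARCB1 cells, 0.17 for SMARCB1 in DMSO and -0.32 for SMARCB1 in dBRD9-A. For the interaction the median was -0.49. In GFP cells 4 of 5 members were then called higher with dBRD9-A, among 11310 of 15750 genes called in either direction. Their log2 fold changes were 0.64 for SOX4, 0.44 for SOX12, 0.24 for SOX6 and 0.81 for SOX8.

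Against the shifted median of 0.36, SOX6 remained below it and SOX8 above it, as with TMM. SOX6 has the opposite sign in GFP cells under the 2 scalings, so no direction is given for it there. SOX6 fell with dBRD9-A in SMARCB1 cells under both (-0.34 and -0.48). SMARCB1 raised SOX4 and SOX13 and lowered SOX8 under both scalings in DMSO and in dBRD9-A. The SOX12 difference in DMSO was -0.01 (adjusted p = 0.964) with spike-ins, and the SOX6 difference in dBRD9-A was 0.09 (adjusted p = 0.322).

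**Figure D4:**
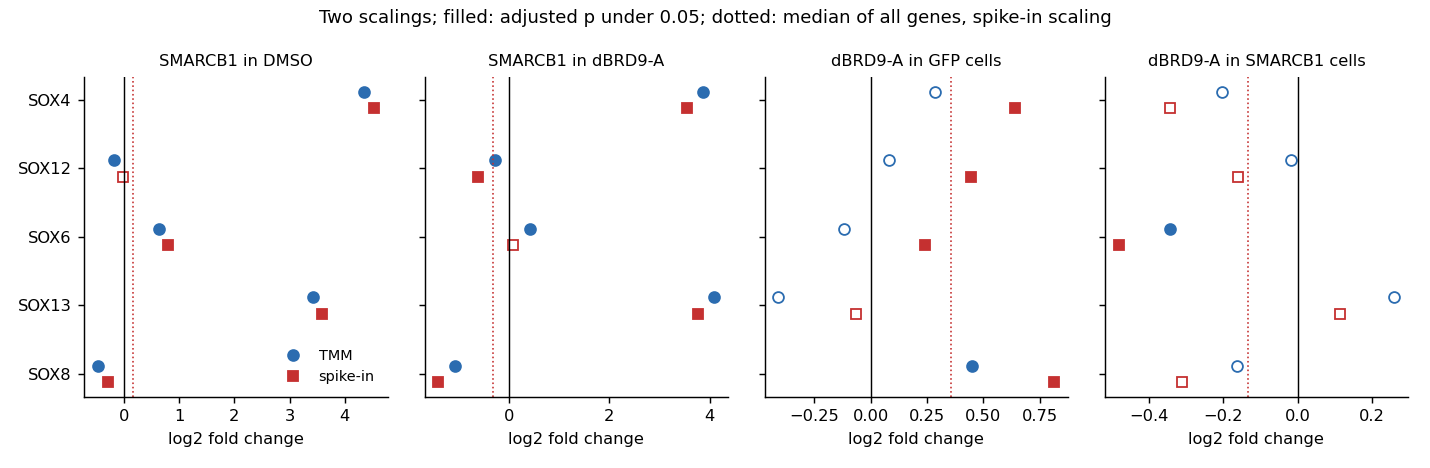
Log2 fold changes of the 5 tested members under TMM (circles) and spike-in scaling (squares) in 4 comparisons, with filled symbols for an adjusted p under 0.05; the horizontal scale differs between panels and the dotted line is the spike-in median of all genes. In GFP cells with dBRD9-A the spike-in values sit to the right of the TMM values by about the median shift of 0.36, and SOX6 crosses 0.

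Of 9 further SOX genes, 3 passed the filter. SOX15, a SOXG gene of muscle and placental progenitors, fell with SMARCB1 in DMSO from 10.8 CPM ± 0.219 (SD, n = 3) to 1.80 CPM ± 0.178 (SD, n = 3), which is -2.57 on the log2 scale (SE 0.09, adjusted p = 3.28e-14). SOX7, a SOXF gene of endothelium and endoderm, rose from 0.792 CPM ± 0.0125 (SD, n = 3) to 2.82 CPM ± 0.182 (SD, n = 3), which is 1.84 on the log2 scale (SE 0.17, adjusted p = 4.46e-08). Both calls held without SMARCB1 with DMSO replicate 1. SOX18, a SOXF gene of lymphatic endothelium, was at 1.08 and 0.927 CPM (-0.19, adjusted p = 0.5003). The SOXF genes thus differed among themselves: SOX17 silent, SOX18 not called and SOX7 higher.

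SOX1, SOX3, SOX14 and SOX21 had 0 counts in all libraries, SOX10 had 0 to 1 and SOX30 0 to 3. In GFP cells, dBRD9-A also gave a lower SOX15 level (-0.25, SE 0.07, adjusted p = 0.0235). That call was lost with DESeq2 (adjusted p = 0.0732) and in 5 of 12 fits without 1 library, those lacking GFP with DMSO replicate 1 or 3 or any replicate of GFP with dBRD9-A, and the value was 0.11 with spike-ins. Beside SOX7, 2 matched endothelial markers moved with SMARCB1: VWF had 0 to 5 counts in GFP cells and 22 to 50 in SMARCB1 cells, and CDH5 had 0 and 3 to 10. Their sum was 0 to 5 counts per GFP library and 27 to 53 per SMARCB1 library. Their part in the SOX7 difference was not tested.

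Genes bound by or linked to SOX factors were read from lists chosen with earlier results of these data known. A link does not make a gene a SOX target. Each count is to be read against the share of all genes called. Of 11 cartilage matrix genes bound by SOX9 with SOX5 and SOX6, 8 were tested. SMARCB1 in DMSO gave 2 higher and 5 lower calls, where 65.0% of all genes were called (33.5% higher and 31.6% lower), and without SMARCB1 with DMSO replicate 1 it gave 2 and 4. COL2A1 passed the filter on low counts only through the SMARCB1 groups, and COL11A2 and MATN1 only through the GFP groups. These 3 were thus tested only because of the state where they are high, and the counts are descriptions. COL9A1 and COL9A3, which encode chains of a minor cartilage collagen, fell (-3.13, SE 0.07, adjusted p = 1.63e-16; and -1.87, SE 0.18, adjusted p = 5.15e-08). COL11A2, another minor collagen chain, had a log2 value of -2.39. HAPLN1, which links hyaluronan to proteoglycan, rose (1.45, SE 0.11, adjusted p = 2.29e-09). COL2A1, the main cartilage collagen, named after its values were seen, had 1 to 4 counts per GFP library and 20 to 36 per SMARCB1 library.

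In GFP cells, dBRD9-A lowered 2 of the 8 cartilage genes and raised 0, where 15.9% of all genes were called, 7.43% higher and 8.47% lower. COL11A2 fell by 1.18 on the log2 scale (adjusted p = 0.00413). COL9A1 had -0.19 (adjusted p = 0.0354), a call lost in 6 of 12 fits, each lacking 1 library of the compared groups, and with spike-ins the value was 0.17. In SMARCB1 cells COL11A1 alone of the 8 was called (-0.26, adjusted p = 0.00560). There 1.93% of all genes were called, 0.679% higher and 1.25% lower.

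Of 9 pluripotency and neural stem cell genes linked to SOX2, 5 were tested, and SMARCB1 in DMSO raised 3 and lowered 1, with or without SMARCB1 with DMSO replicate 1. Being called was again common, at 65.0% of all genes. PAX6, a regulator of eye and forebrain, rose by 3.89 (SE 0.10, adjusted p = 4.33e-16) from 37 to 51 counts per library to 464 to 739. LIN28A, which blocks let-7 maturation, rose by 0.52 (adjusted p = 5.76e-11), and NES, the progenitor filament nestin, by 0.28 (adjusted p = 3.89e-06). SALL4, a stem cell zinc finger factor, was at -0.20 (adjusted p = 2.48e-05) and at -0.03 (adjusted p = 0.696) with spike-ins. SOX2 itself was at 0 in 2 of the 3 SMARCB1 libraries with DMSO.

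Of the 5 tested genes of this list, dBRD9-A lowered 2 in GFP cells and 1 in SMARCB1 cells, and raised 0. Of all genes, 15.9% were called in GFP cells and 1.93% in SMARCB1 cells. LIN28A fell with dBRD9-A in GFP cells (-0.63, adjusted p = 1.90e-10) and in SMARCB1 cells (-0.27, adjusted p = 6.24e-05). KLF4, a reprogramming factor, fell in GFP cells (-0.50, adjusted p = 0.0132), a call lost without GFP with DMSO replicate 3 (adjusted p = 0.0545) and with spike-ins (-0.14, adjusted p = 0.410).

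Of 6 neuronal and progenitor genes linked to SOX4 and SOX11, 4 were tested and 1 rose with SMARCB1 in DMSO, where 33.5% of all genes rose: TUBB3, the neuronal beta-tubulin (1.16, SE 0.06, adjusted p = 1.55e-11). TEAD2, a Hippo pathway factor, and EZH2, the Polycomb methyltransferase, had 0.08 (adjusted p = 0.233) and 0.07 (adjusted p = 0.0849). MAP2, a neuronal microtubule protein, had -1.07 (adjusted p = 0.0691), with 20 counts in SMARCB1 with DMSO replicate 1 and 4 and 3 in the other 2. Without that library it was called lower (-2.54, adjusted p = 7.00e-05), but it passed the filter only through the GFP groups. TEAD2 was higher with dBRD9-A in GFP cells (0.22, adjusted p = 0.0108), a call lost without replicate 2 of either GFP group (adjusted p = 0.0539 without the DMSO library and 0.0601 without the dBRD9-A library).

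Of 7 endoderm genes linked to SOX17, 6 were matched and 2 tested, and SOX17 itself was at 0. Both were called higher with SMARCB1 in DMSO, as were 33.5% of all genes, with or without SMARCB1 with DMSO replicate 1. GATA6, an endoderm and heart factor, rose from 6 to 18 counts per library to 410 to 569 (5.63, SE 0.17, adjusted p = 5.48e-15). FOXA1, a pioneer factor, had 7 to 11 counts per GFP library with DMSO and 16 to 45 per SMARCB1 library with DMSO. It passed the filter only through the SMARCB1 groups, where it is high, so its call is a description. Of 6 neural crest and glial genes linked to SOX8, SOX9 and SOX10, 2 were tested. ERBB3, the neuregulin receptor, fell with SMARCB1 in DMSO (-2.05, SE 0.09, adjusted p = 5.67e-13), also without SMARCB1 with DMSO replicate 1. Of 2 melanocyte markers, PMEL had 175 to 274 counts in GFP cells and 58 to 117 in SMARCB1 cells, and MLANA had 0 to 1, with sums of 175 to 274 and 58 to 117 counts. Their part in the neural crest list was not tested.

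TFAP2A, a neural crest factor, had 0.20 (adjusted p = 0.0472) with SMARCB1 in DMSO, called in 5 of 12 fits without 1 library. It had -0.36 (adjusted p = 0.0133) with dBRD9-A in GFP cells, called in 9 of 12. The latter value was 0.01 with spike-ins. The calls of TFAP2A thus rested on single libraries, GFP with DMSO replicate 3 and GFP with dBRD9-A replicates 1 and 2 for dBRD9-A, and for SMARCB1 any 1 of GFP with DMSO replicates 1, 2 and 3, SMARCB1 with DMSO replicates 1 and 3, and replicate 1 of either dBRD9-A group.

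**Figure D5:**
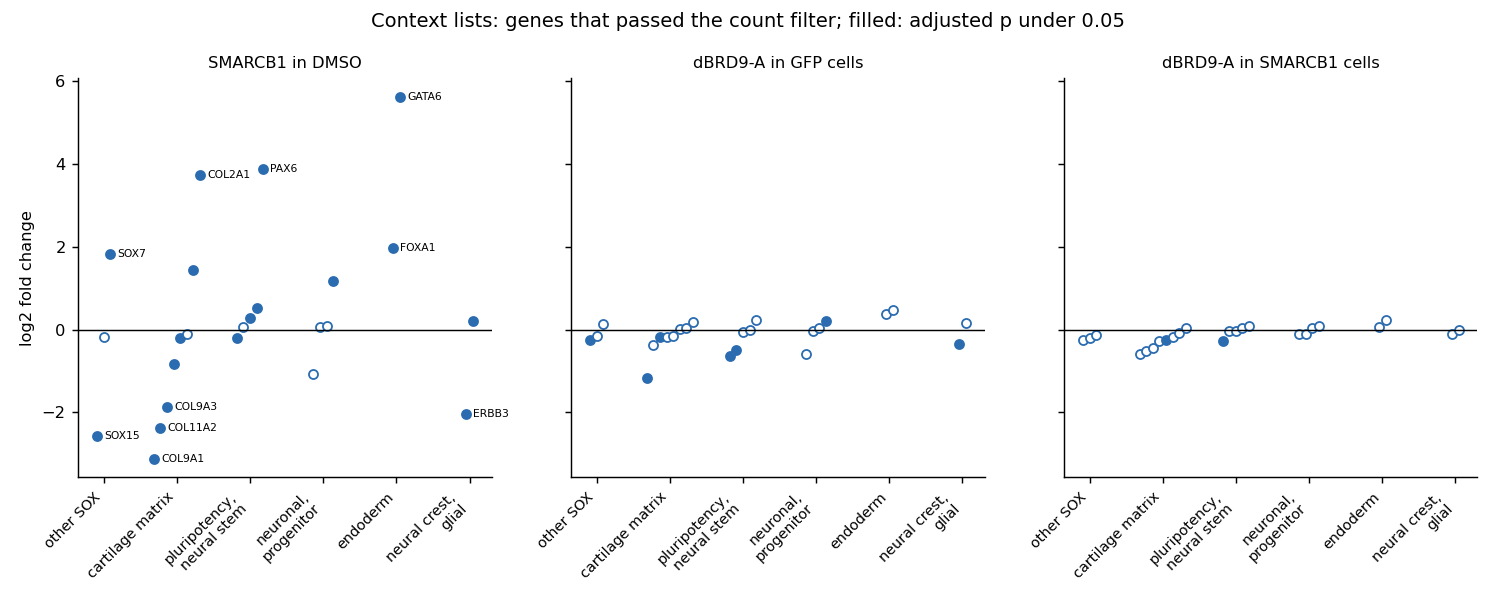
Log2 fold change of each tested gene in 6 lists, for SMARCB1 in DMSO and for dBRD9-A in each state, on a shared axis; filled points have an adjusted p under 0.05 and genes beyond 1.5 on the left are named. COL2A1, labelled for its size and outside the rule for named genes, has 3.73 and passed the filter only through the SMARCB1 groups. The panel for dBRD9-A in SMARCB1 cells has 2 filled points, COL11A1 (-0.26) and LIN28A (-0.27).

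Neighbouring transcripts were examined because strand use in counting is not stated in the sources used here. In GENCODE release 29, SOX6 overlaps C11orf58 on the opposite strand, SOX12 overlaps NRSN2-AS1, and SOX15 overlaps MPDU1. On the same strand, SOX7 overlaps PINX1, and SOX6 overlaps MIR6073 and AKR1B1P3, so strand would not tell these apart. Counts of these same-strand genes were not examined, and their part in the SOX7 and SOX6 differences was not tested. C11orf58 had 8481 to 14378 counts and fell slightly with SMARCB1 in DMSO (-0.14, SE 0.03, adjusted p = 1.20e-04), in the direction opposite to SOX6, and had -0.01 (adjusted p = 0.928) with dBRD9-A in SMARCB1 cells. NRSN2-AS1 had 86 to 192 counts and -0.22 (SE 0.12, adjusted p = 0.134) with SMARCB1 in DMSO, beside -0.18 for SOX12. MPDU1 rose slightly (0.14, adjusted p = 0.00280) where SOX15 fell. Without strand in the counting, reads in the shared stretches cannot be told apart.

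SOX4 overlaps an antisense gene, AL512380.2, that was not used here, whereas SOX8 and SOX13 overlap none. Of 5 transcripts named for SOX genes (SOX2-OT, SOX9-AS1, SOX5-AS1, SOX21-AS1 and SOX1-OT), none passed the filter. SOX2-OT had 0 to 5 counts, and it was at 0 in SMARCB1 with DMSO replicate 1, where SOX2 had 15.

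Profiles were compared by Pearson's r of log2 CPM, with 0.5 CPM added, over the 12 libraries. The genes most like each member were taken from 12585 genes with a mean count of at least 50. For SOX4 they were HAND1, a heart and trophoblast factor (r = 0.999), and ITGA6, an integrin subunit (r = 0.999). For SOX13 they were CD58, an adhesion ligand (r = 0.991), and MTRF1L, a mitochondrial release factor (r = 0.989). For SOX6 they were TRIM71, a stem cell RNA-binding protein (r = 0.981), and OSBPL3, a sterol-binding-like protein (r = 0.976). SOX8 was closest to EIF4ENIF1, an eIF4E transporter (r = 0.972), and SPIRE2, an actin nucleator (r = 0.965). SOX12 was closest to SAFB, a nuclear scaffold protein (r = 0.962), and C19orf25 (r = 0.961). All points share their libraries and fall into 4 groups, so these values describe likeness only. In every GFP library SOX4 and SOX13 lay under the added 0.5 CPM, which flattens their differences between those libraries.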

How the data were processed

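RNA of 12 G401 samples was extracted with an RNeasy Plus kit and prepared with a stranded TruSeq mRNA kit, per the labels' protocols. The deposited values are RSEM expected counts per gene. The submitters' processing notes name STAR, RSEM 1.3.1, DESeq2 and GRCh37/hg19 without role or order, and the annotation and use of strand are not given in the sources used here. Expected counts were rounded, and neither library sizes nor tests used the 40 ERCC rows. edgeR 4.0.16 (R 4.3.3) fitted all 12 libraries with 1 coefficient per group: filterByExpr with a minimum count of 10, TMM, quasi-likelihood tests, and Benjamini-Hochberg adjustment over 15750 genes, with calls at an adjusted p under 0.05. SE was taken as the absolute log2 fold change over the square root of F. Scripts were tested on simulated data. Libraries of 34974295 to 58536060 counts put the floor of 3 counts at 0.0516 to 0.0847 CPM. No 2 replicates were alike within sampling noise (chi-square per degree of freedom 2.89 to 23.8). Alternatives were DESeq2 1.42.0, spike-in scaling, other filters, the compared groups alone, a replicate block and each library left out. Members and lists were chosen with earlier results of these data known. Every member is described, and of each list at most 4 genes with the lowest p for SMARCB1 in DMSO, plus any called for dBRD9-A. One gene of the neural crest and glial list is not reported here. Promoters are RefSeq's, GRCh38.p14, with 6 of 10 members matched.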

Additional observations from a re-analysis of the deposited data

Results flagged for a closer look

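The response to dBRD9-A differed between SMARCB1 and GFP cells, by edgeR's interaction test, for 2 genes of the lists. COL11A1, a chain of cartilage collagen, had a difference of -0.26 (adjusted p = 0.0328), with a log2 fold change of 0.01 in GFP cells and -0.26 in SMARCB1 cells. LIN28A had a difference of 0.37 (adjusted p = 5.54e-05), with -0.63 in GFP cells and -0.27 in SMARCB1 cells. With spike-in scaling the LIN28A values were -0.27 in GFP cells and -0.40 in SMARCB1 cells, the opposite order. Under that scaling the median of all genes was 0.36 in GFP cells, -0.14 in SMARCB1 cells and -0.49 for the interaction. The LIN28A difference under that scaling is not given here. No listed SOX gene met edgeR's interaction test with TMM.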

How the results depend on the processing

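SOX4, SOX6, SOX8 and SOX13 kept the direction and the call of their SMARCB1 effect in DMSO under every alternative in which they were tested (SOX13 was not tested with a minimum count of 50). With a change of at least 1 on the log2 scale, in either direction, also required, 2 members were changed by SMARCB1 in DMSO, 3 by SMARCB1 in dBRD9-A, 0 by dBRD9-A in GFP cells and 0 by dBRD9-A in SMARCB1 cells. The share of all genes at this limit was not counted, so these counts are descriptions. SOX13, in both SMARCB1 counts, passed the filter only through the SMARCB1 groups. Spike-in scaling called 4 members for dBRD9-A in GFP cells, among 11310 of 15750 genes called, and 4 for the interaction, among 11270 of 15750. It reversed SOX6 (0.24), SOX15 (0.11), COL9A1 (0.17) and TFAP2A (0.0067) for dBRD9-A in GFP cells. The interaction was called for 1 member under DESeq2, 1 without a filter and 1 with a minimum count of 50 (SOX8 in each), and for 0 to 1 members when 1 library was left out. Without 1 library, the dBRD9-A effect ranged from -0.118 to 0.0325 for SOX12 in SMARCB1 cells and from -2.01 to 0.14 for SOX13 in GFP cells, and the count for SMARCB1 in DMSO from 4 to 5. With the replicate number as a block, the interaction was called for 1 member, SOX6 (-0.22, adjusted p = 0.0476), and the calls of COL9A1 for dBRD9-A in GFP cells (adjusted p = 0.0562) and of TFAP2A for SMARCB1 in DMSO (adjusted p = 0.0575) were lost. Deviations from group means showed no pairing by equal replicate number: r was -0.0892 to 0.0573 over 18 such pairs, 0 of them over 0.1. Of 12 libraries, 1 correlated best with its own number. With 3 libraries per group and counting noise in every gene, this check cannot show that pairing is absent. The causes were not tested. Depth limits SOX13 and the 5 untested members.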
